A study of Arabidopsis thaliana with 6 samples.

Results

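The AT1G52 cluster is a run of neighbouring genes for jacalin-type lectins on chromosome 1 of Arabidopsis thaliana. The set was defined by name as 8 loci, AT1G52000, AT1G52050, AT1G52060, AT1G52070, AT1G52100, AT1G52110, AT1G52120 and AT1G52130. Of these 8, 5 had a probe set named in the annotation used here, out of 22746 gene probe sets on the array. AT1G52110, AT1G52120 and AT1G52130 had no probe set named here and were not analysed. The gene tables used here list the members by locus number only, so their identity as lectins is taken from the definition of the set and not from a measurement. Each of the 5 genes was measured by 1 probe set, and 0 of these probe sets were shared by several annotated genes. The cluster was picked out because AT1G52100 stood among the largest rises of the same mutant and wild type comparison. The differences between the groups that are given below for the cluster are therefore descriptions, and no p-value is printed for them. Where a cluster gene is said to pass or to lose a threshold, that is a description too.

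Jacalin-type lectins are carbohydrate-binding proteins built from a jacalin domain that folds as a beta-prism. The family is large in the mustard family of plants. Some of its proteins bind myrosinases, the enzymes that break down glucosinolates after wounding, and others bind the beta-glucosidase PYK10, which is stored in bodies of the endoplasmic reticulum. Both enzyme systems release defence compounds when tissue is damaged.

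RNA came from whole light-grown seedlings and was hybridised to 6 Affymetrix ATH1 arrays. The VFB mutant group had 3 arrays, from plants that the labels call a triple mutant without naming the mutated genes or alleles. The wild type group had 3 arrays, from accession Col-0. VFB genes (VIER F-box proteine) encode F-box proteins, the subunits of ubiquitin ligases that choose which proteins are marked for degradation. VFB1, VFB2, VFB3 and SKIP2 (VFB4) had no probe set named here, so the genotype labels could not be checked against the mutated genes. The sample descriptions give an age of 10 days for both groups, whereas the source names give 5 days for the mutant and 10 days for wild type, so genotype and age cannot be told apart if the source names hold. The extraction text of mutant replicate 3 names wild type plants of accession No-0, against its title. That array correlated with the other mutant arrays at 0.978 or more and with the wild type arrays at 0.956 or less (log2 values across tested probe sets). Of the mutant arrays it was the closest to wild type replicates 1, 2 and 3, at 0.954, 0.956 and 0.946. Mutant replicate 2 was near it, at 0.949, 0.955 and 0.946. Results without mutant replicate 3 are also given for the cluster genes and for some of the other genes.

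Array medians ran from 184.6 to 204.2 intensity units. The ratio of 3' to 5' signal of the actin control, a measure of RNA integrity, was 3.4 ± 0.188 in the mutant and 2.80 ± 0.231 in wild type (SD, n = 3 each; exact two-sided permutation test, p = 0.1, the smallest that 3 against 3 allows), and it was higher in every mutant array. The corresponding p was 1 for GAPDH and 0.3 for ubiquitin. The part of RNA integrity in the differences below was not tested. In whole seedlings, a change in the share of cells that express a gene and a change in RNA per cell cannot be told apart.

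The 5 measured genes divided into 2 that were brighter in the mutant and 3 whose means were lower there. AT1G52100 and AT1G52000 were higher in every mutant array than in any wild type array, the lowest mutant array being 4.05 and 2.26 times the highest wild type array. AT1G52060 and AT1G52070, which lie between them, were lower in every mutant array, and AT1G52050 was lower on average with overlapping groups. Only AT1G52100 and AT1G52000 were bright enough for the fit across all probe sets, which took probe sets whose mean log2 value over all 6 arrays exceeded 6.96, or about 108.6 intensity units. Over the array, groups without overlap and with the mutant above made up 15% of the tested probe sets. Those with the mutant below made up 16.1% of all gene probe sets and 8.53% of those under this limit.

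AT1G52100 encodes a jacalin-type lectin, and it had the larger rise. Its intensity was 1237.3, 1280 and 1048.5 in mutant replicates 1, 2 and 3, against 168.4, 258.7 and 139.4 in wild type replicates 1, 2 and 3. The mutant arrays lay close together, and the lowest of them was 4.05 times the highest wild type array. The mean was 1189 ± 123 in the mutant and 188.8 ± 62.2 in wild type (SD, n = 3 each), a ratio of 6.29. On the scale of log2(intensity + 16), which understates changes of dim probe sets, the difference between mutant and wild type was 2.59 ± 0.186 (SE). This was the 11th largest rise among 13647 tested probe sets and the fifth among those with 1 named gene.

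AT1G52000, also a jacalin-type lectin gene, was at 3104.7, 1257.1 and 1932.1 in mutant replicates 1, 2 and 3, against 403.8, 555.9 and 493.1 in wild type replicates 1, 2 and 3. The groups did not overlap, and the lowest mutant array was 2.26 times the highest wild type array. The mutant arrays were spread over a 2.47-fold range, with replicate 1 highest and replicate 2 lowest, while the wild type arrays were spread over 1.38-fold. The mean was 2098 ± 935 in the mutant and 484.3 ± 76.4 in wild type (SD, n = 3 each), a ratio of 4.33. The log2 difference was 1.99 ± 0.246 (SE), the 38th largest rise among tested probe sets.

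Both tested genes of the cluster passed the threshold of 0.05 for the adjusted p in limma and were higher in the mutant. Over all tested probe sets 18.6% passed, 8.17% as higher and 10.4% as lower in the mutant. Because the cluster was chosen on this comparison, nothing is read from its count. After each array was centred on its median, 61.8% of all calls were higher in the mutant, against 43.9% as deposited. The median log2 difference over all tested probe sets was -0.045. Each group's own mean log2 value lay above the brightness limit for both genes, at 10.23 in the mutant and 7.64 in wild type for AT1G52100 and at 10.95 in the mutant and 8.95 in wild type for AT1G52000. Without mutant replicate 3 the log2 differences were 2.68 for AT1G52100 and 2.01 for AT1G52000.

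**Figure D1:**
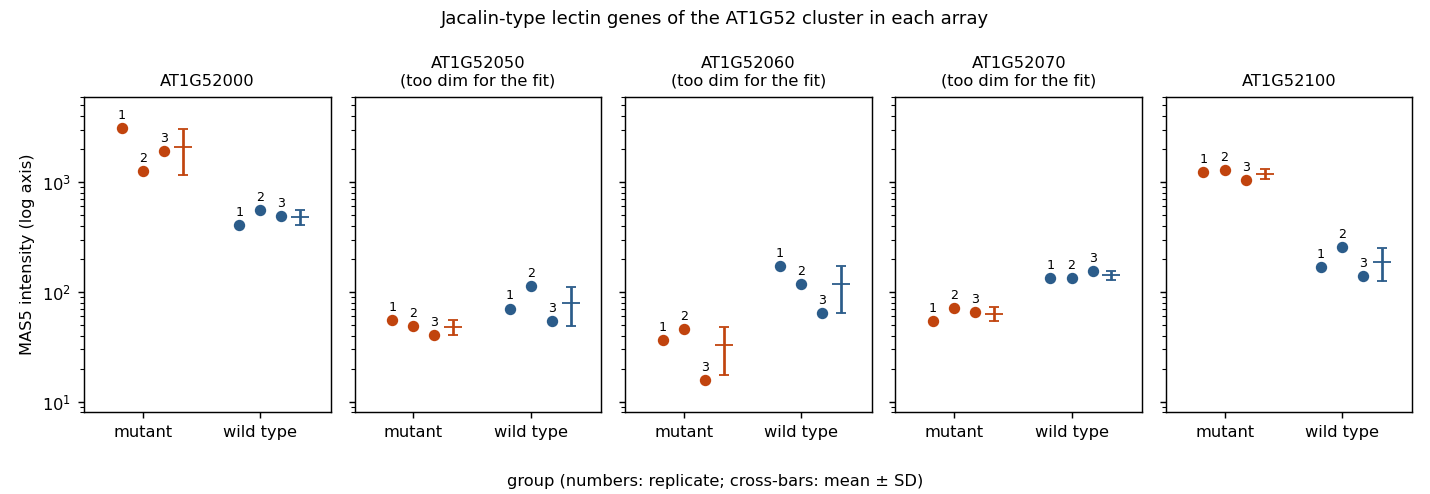
MAS5 intensity (log axis) of the 5 measured jacalin-type lectin genes in each array, with mutant arrays left of wild type arrays in each panel. Points are arrays numbered by replicate, and cross-bars show mean ± SD (n = 3). AT1G52000 and AT1G52100 lie above wild type in every mutant array, AT1G52060 and AT1G52070 lie below it, and the AT1G52050 groups overlap.

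The 3 dim genes follow one another on the chromosome without another annotated gene between them. AT1G52060, a jacalin-type lectin gene, was at 36.7, 45.8 and 15.9 in mutant replicates 1, 2 and 3, against 171, 118.8 and 64.3 in wild type replicates 1, 2 and 3. Every mutant array was lower than every wild type array, but both groups were spread widely, over 2.88-fold in the mutant and 2.66-fold in wild type. The log2 difference was -1.43 ± 0.368 (SE), estimated in a fit of all probe sets without the brightness limit.

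AT1G52070, a jacalin-type lectin gene as well, was at 53.9, 70.8 and 66.3 in mutant replicates 1, 2 and 3, against 133.4, 134.7 and 156.6 in wild type replicates 1, 2 and 3. Arrays of a group lay close together, within 1.31-fold in the mutant and 1.17-fold in wild type, and the groups did not overlap. The means were 63.7 ± 8.75 in the mutant and 141.6 ± 13.0 in wild type (SD, n = 3 each), and wild type was 2.22 times the mutant. The log2 difference was -0.99 ± 0.216 (SE) in the fit without the brightness limit.

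AT1G52050, the first jacalin-type lectin gene of this run, was at 55.6, 48.5 and 40.2 in mutant replicates 1, 2 and 3, against 70.7, 114.3 and 54.3 in wild type replicates 1, 2 and 3. Wild type replicate 3 fell just below mutant replicate 1, so the groups overlapped. The log2 difference of -0.54 ± 0.290 (SE) did not pass.

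In the fit without the brightness limit AT1G52060 and AT1G52070 passed as lower. The cluster was chosen on this comparison, so these calls are descriptions and nothing is read from them. In that fit 5.06% of 22746 probe sets passed as lower, 4.26% as higher and 9.32% in either direction. Among the 9099 probe sets under the limit 1.21% passed as lower. Groups without overlap, with the mutant lower, made up 8.53% of the probe sets under the limit. The call of AT1G52060 was lost in 6 of 13 alternatives. They were a variance model without a trend, each fit that left out a mutant array, and those that left out the first or the second wild type array, and the log2 difference was -1.15 without mutant replicate 3. It was -0.88 with an added offset of 64 and -1.83 with an offset of 1. The call of AT1G52070 was lost in 4 of 13 alternatives, each of which left out an array, namely any of the wild type arrays or the first mutant array. Without mutant replicate 3 it passed at -1.01, and the log2 difference of AT1G52050 was -0.45.

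Along the chromosome, RefSeq placed 18 annotated genes from AT1G52000 to AT1G52130, of which 10 are not in the set. Of these 10, 4 had a named probe set. MBP1 and MBP2, which encode myrosinase-binding proteins and lie between AT1G52000 and AT1G52050, had no probe set named here. The pseudogenes AT1G52010, AT1G52020 and AT1G52090 were under the brightness limit, with overlapping groups in each case. AR791, which lies between AT1G52070 and AT1G52100, was at 191.3, 168.5 and 182.9 in mutant replicates 1, 2 and 3, against 116.6, 174.8 and 197.6 in wild type replicates 1, 2 and 3. Its log2 difference was 0.16 ± 0.197 (SE) and did not pass (limma, adjusted p = 0.615).

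The genes that flank the cluster showed both directions. AT1G52140, the nearest gene after AT1G52130, fell to 179.2, 203.8 and 145.8 in the mutant arrays, against 321.8, 280.4 and 329.4 in the wild type arrays. Its log2 difference was -0.77 ± 0.162 (SE; limma, adjusted p = 0.00572). TRZ3, a tRNA processing enzyme gene 4 places beyond the cluster, differed by 0.61 ± 0.234 and did not pass (adjusted p = 0.0927), although it did without wild type replicate 3 and with median centring. Without wild type replicate 1 the difference of TRZ3 was 0.28 (adjusted p = 0.27, the highest of its 14 alternatives). On the other side AT1G51980, 2 places before AT1G52000, differed by 0.11 ± 0.146 (adjusted p = 0.657). AT1G51990 and IQD27 were under the brightness limit and did not pass in the fit without it.

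Farther out, AT1G52200, 12 places beyond the cluster, rose by 1.30 ± 0.132 on the log2 scale (limma, adjusted p = 5.4e-05). IAA18, a repressor gene of auxin signalling 6 places before AT1G52000, changed by -0.37 ± 0.118 (adjusted p = 0.0432), a call lost in 9 of 15 alternatives, among them those without wild type replicate 1 or 2 and without mutant replicate 1 or 2. Of 7 tested neighbours from AT1G51900 to AT1G52230, 1 was called higher and 2 lower, against 8.17% and 10.4% of all tested probe sets.

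**Figure D2:**
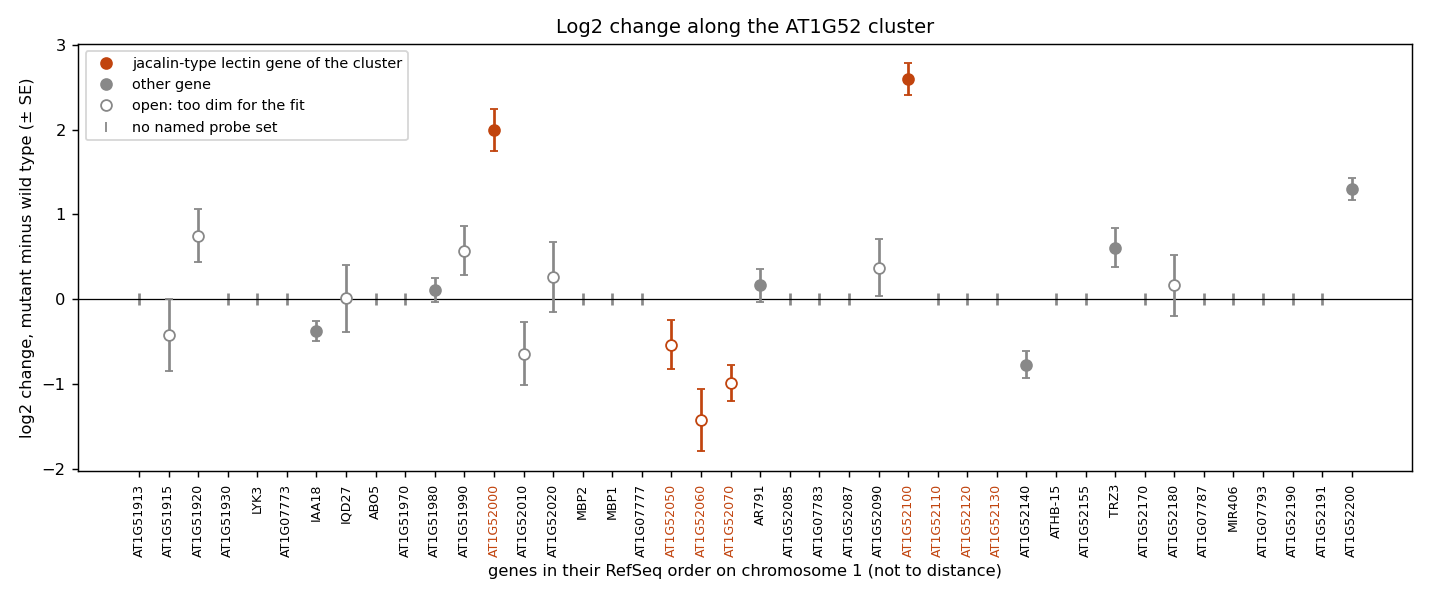
Log2 difference, mutant minus wild type, with SE, of genes in their RefSeq order along chromosome 1, evenly spaced. Cluster genes are orange and other genes grey, open circles are probe sets under the brightness limit and ticks on the zero line are genes with no named probe set. AT1G52000 (1.99) and AT1G52100 (2.59) stand above zero, while AT1G52050, AT1G52060 and AT1G52070 between them lie below it.

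The 2 risen genes differed in how the mutant arrays were spread. In log2 terms AT1G52000 lay 0.66 from the mutant mean in replicate 1 and -0.64 from it in replicate 2, whereas AT1G52100 deviated by 0.06 and 0.11 there. Replicate 2 was also the lowest mutant array for JAL23, a jacalin-related lectin gene on another chromosome (-1.25), for AT1G54020 (-2.33) and for THI2.1, a thionin gene (-2.53). Those genes were highest in mutant replicate 1, as AT1G52000 was. They were chosen after their values were seen, and how many other probe sets share this order was not counted, so nothing is read from it. Leaving out mutant replicate 1 gave a log2 difference of 1.67 for AT1G52000, and leaving out replicate 2 gave 2.31.

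**Figure D3:**
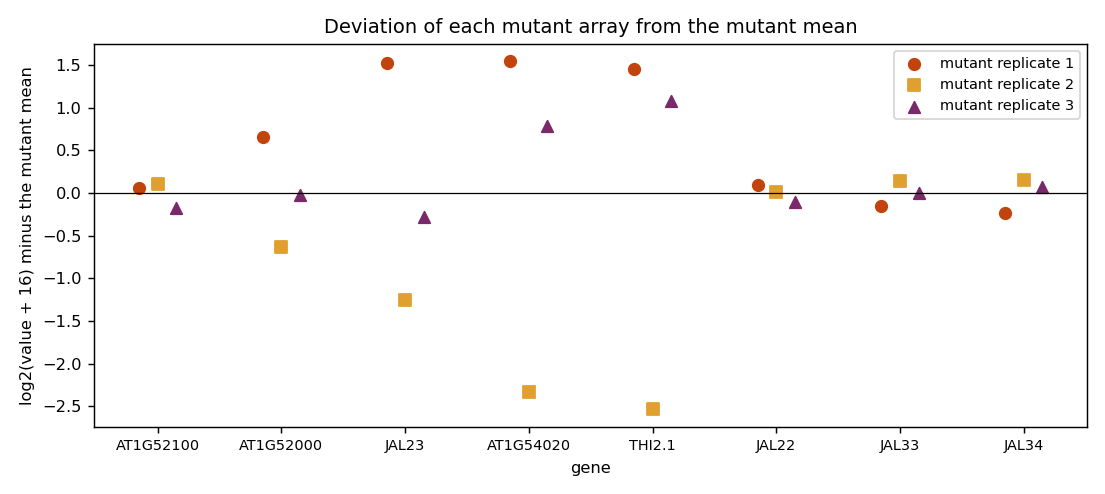
Deviation of each mutant array from the mutant mean, in log2(intensity + 16), for the 2 risen genes of the cluster, the 4 named jacalin-related lectin genes elsewhere, AT1G54020 and THI2.1. Replicate 2 (squares) lies lowest for AT1G52000, JAL23, AT1G54020 and THI2.1, and the 3 arrays lie close together for AT1G52100, JAL22, JAL33 and JAL34. The genes shown were chosen after their values were seen.

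Within the cluster, deviations from the group means over the 6 arrays were compared for 10 pairs of genes as a description. Pearson's r ran from -0.71 for AT1G52000 with AT1G52070 to 0.98 for AT1G52050 with AT1G52100. Both genes of the last pair were highest among wild type arrays in replicate 2 and lowest in replicate 3, with 114.3 and 54.3 for AT1G52050 and 258.7 and 139.4 for AT1G52100. The 6 deviations of a gene sum to 0 within each group and share the scaling of their array, so these values rest on few independent numbers.

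Of 16 other loci that the annotation names as jacalin-related, myrosinase-binding or nitrile specifier genes, 4 had a probe set named here. All 4 were tested, and 2 rose, where 8.17% of all tested probe sets passed as higher. JAL23 had the larger change, with 3307.4, 468.6 and 935.8 in mutant replicates 1, 2 and 3, against 285.6, 188.3 and 256.2 in wild type replicates 1, 2 and 3. Every mutant array was above wild type, and the mutant arrays differed widely among themselves. The log2 difference was 2.17 ± 0.483 (SE; limma, adjusted p = 0.00792). It was 1.41 without mutant replicate 1, 2.80 without mutant replicate 2 and 2.31 without mutant replicate 3, and the call was lost with a robust variance model (adjusted p = 0.155), which was the highest adjusted p of its 15 alternatives.

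JAL33 rose slightly, with 4114.4, 5043.2 and 4560.5 in the mutant arrays, against 3360.6, 3908 and 3434.7 in the wild type arrays. Its log2 difference was 0.35 ± 0.109 (limma, adjusted p = 0.039). The call was lost in 8 of 15 alternatives, with adjusted p between 0.0162 and 0.156 over all of them. It was lost without mutant replicate 2 or 3 and without wild type replicate 1 or 3, and adjusted p was 0.0756 without mutant replicate 3. JAL34, the neighbour of JAL33 by locus number, differed by 0.35 ± 0.12 with overlapping groups and did not pass (adjusted p = 0.0583), although it did without mutant replicate 1 and with median centring. JAL22, which lies near JAL23 by locus number, was at 2219 ± 152 in the mutant and 2773 ± 425 in wild type (SD, n = 3 each), a log2 difference of -0.31 ± 0.12 that did not pass (adjusted p = 0.094). Every mutant array of JAL22 was below every wild type array, as in 21.2% of all tested probe sets. The median over the 4 was 0.35, against -0.045 over all tested probe sets.

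A further 26 loci of the jacalin list carried no lectin name in the annotation and were left out of that count. Of these 26, 13 had a named probe set and 3 were tested, and 0 of the 3 passed. AT2G25980 was at 216.5, 334.6 and 406 in the mutant arrays, against 407.7, 655.7 and 389.8 in the wild type arrays, with overlapping groups. Its log2 difference was -0.58 ± 0.229 (limma, adjusted p = 0.0998), and it passed only without mutant replicate 3 (adjusted p = 0.0494, the lowest of its 15 alternatives). AT1G19715 differed by -0.27 ± 0.142 and AT1G73040 by 0.03 ± 0.268, the second of which ran from -0.25 to 0.28 when an array was left out. Among the 10 dim loci AT1G05770 passed as lower in the fit without the brightness limit, with 4, 5.4 and 5.2 in the mutant arrays, against 35.9, 78.4 and 34.2 in the wild type arrays. Its log2 difference was -1.59 ± 0.321 (limma, adjusted p = 0.0127), and it ran from -3.01 with an offset of 1 to -0.70 with an offset of 64. Leaving out wild type replicate 2 ended the call of AT1G05770 (adjusted p = 0.0508, the highest of its 13 alternatives). Over all 42 listed loci, 17 had a named probe set and 7 were tested, of which 2 rose and 5 did not pass, with a median of 0.03.

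The list for PYK10 and its partners in endoplasmic reticulum bodies had 18 loci, of which 8 had a named probe set, including the 4 jacalin-related genes above. All 8 were tested and 4 rose, among them JAL23 and JAL33, which are already counted above. Over all tested probe sets 8.17% passed as higher. The log2 difference of AT1G54020 was 3.48 ± 0.690 (SE; limma, adjusted p = 0.00403), with 2519.8, 157.1 and 1482.3 in the mutant arrays, against 74.8, 46.2 and 67.4 in the wild type arrays. The call of AT1G54020 was lost with a robust variance model (adjusted p = 0.128, the highest of its 14 alternatives). The difference was 2.71 without mutant replicate 1, 4.65 without mutant replicate 2 and 3.09 without mutant replicate 3. NAI2, a component needed to form these bodies, rose to 2318 ± 418 in the mutant, against 1733 ± 111 in wild type (SD, n = 3 each; adjusted p = 0.0499), a call lost in 10 of 15 alternatives. Only the one without mutant replicate 1 kept it among those that left out an array. PYK10 itself was at 14947 ± 2357 in the mutant and 12899 ± 468 in wild type (SD, n = 3 each), with overlapping groups and a log2 difference of 0.20 ± 0.118 that did not pass (adjusted p = 0.274). NAI1, the transcription factor gene of these bodies, differed by 0.31 ± 0.177 (adjusted p = 0.254). The list's median was 0.35.

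Jasmonate is the hormone of wounding and insect defence, and several genes of this lectin family are known to respond to it. Of 21 listed jasmonate genes 3 had a named probe set, and THI2.1 rose (log2 difference 4.58 ± 0.733; limma, adjusted p = 0.00107). The difference was 3.86 without mutant replicate 1, 5.85 without mutant replicate 2 and 4.05 without mutant replicate 3. It was 3.82 with an offset of 64, and the call was lost with a robust variance model. The antifungal defensin gene PDF1.2 differed by 0.22 ± 0.310 and AT2G43530 by 0.30 ± 0.251, and neither passed. Among all tested probe sets 8.17% passed as higher. Leaving out 1 array moved PDF1.2 between -0.15 (without mutant replicate 2) and 0.55 (without mutant replicate 1), and it was also negative without wild type replicate 2. AT2G43530 moved between -0.0091 (without mutant replicate 1) and 0.62 (without mutant replicate 2), so neither has a settled direction. The list on glucosinolate breakdown had 13 loci, and AT1G54020 was the 1 with a named probe set.

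**Figure D4:**
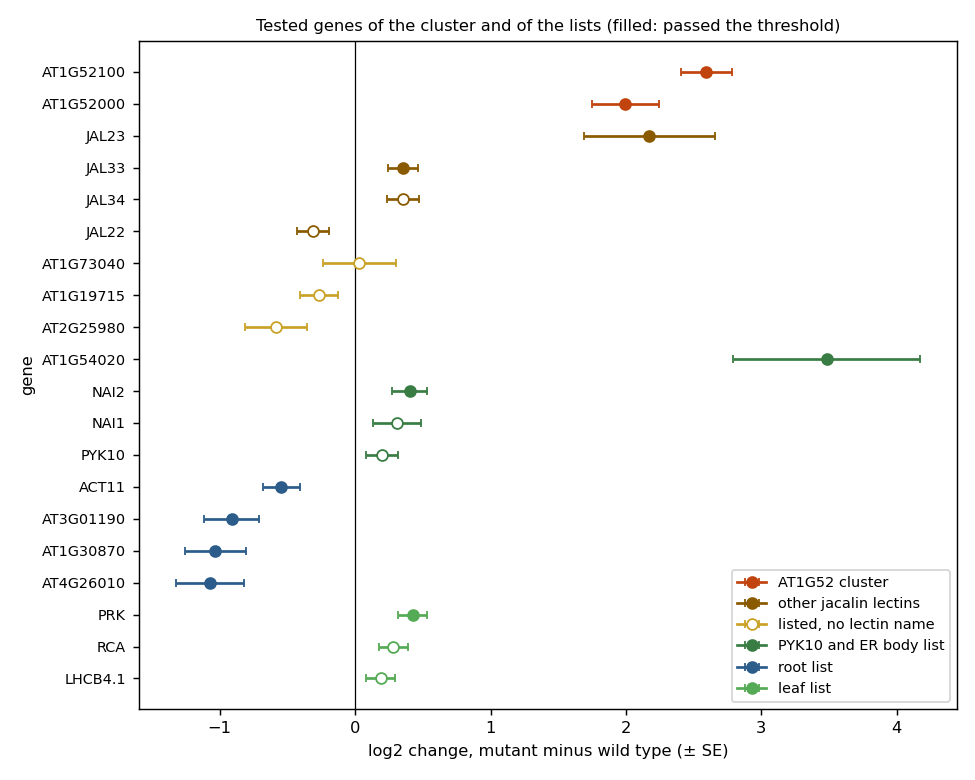
Log2 difference, mutant minus wild type, with SE, of tested genes of the cluster and of the lists, with listed jacalin loci that carry no lectin name shown apart. Filled circles passed the threshold in limma and open circles did not. AT1G52100 (2.59), AT1G52000 (1.99), JAL23 (2.17) and AT1G54020 (3.48) stand apart from PYK10 (0.20), JAL33, JAL34 and JAL22, and the 4 root-list genes other than PYK10 lie below zero.

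Most tested genes of the root marker list fell in the mutant. The list was set by locus, and whether each gene on it, ACT11 included, is particular to roots was not checked here. Of 20 listed root genes 8 had a named probe set and 5 were tested. Of the 5, ACT11 (-0.54 ± 0.137), AT3G01190 (-0.91 ± 0.200), AT1G30870 (-1.03 ± 0.226) and AT4G26010 (-1.07 ± 0.253) fell (limma, adjusted p = 0.0155, 0.00733, 0.00733 and 0.0112). Among all tested probe sets 10.4% passed as lower. The call of ACT11 was lost without wild type replicate 1 or 2. PYK10, which is abundant in roots, did not pass. The summed intensity of the 7 named root genes other than PYK10 was 667.1 to 968.6 in the mutant arrays and 1388.6 to 1545.6 in the wild type arrays, and with PYK10 it was 13054.2 to 17986.3 in the mutant and 14027.4 to 14984.4 in wild type. No named root gene was listed at 0, the lowest value being 4.9. The fall of these listed genes accompanied both the rises and the lower values within the cluster, and its part in either was not tested.

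Of 17 listed genes of green tissue, 3 had a named probe set. Their summed intensity was 59809.5 to 65995.9 in the mutant and 49973.5 to 54653.7 in wild type. PRK, a Calvin cycle enzyme gene, rose by 0.43 ± 0.109 (limma, adjusted p = 0.0166), where 8.17% of all tested probe sets passed as higher. The call of PRK was lost in 4 of 15 alternatives, including those without wild type replicate 1 and without mutant replicate 2. The Rubisco activase gene RCA (0.28 ± 0.104) and the antenna protein gene LHCB4.1 (0.19 ± 0.107) did not pass, except RCA with median centring. Quantile normalization gave smaller differences for all 3, with 0.07 for RCA, 0.0044 for LHCB4.1 and 0.28 for PRK, which then did not pass. The flower list had 1 named probe set of 8 loci, AT5G07230, at 23.9 to 59.9 in the mutant and 3.1 to 14.8 in wild type, under the brightness limit. The seed list of 9 loci had no named probe set. The part of any of these lists in the differences of the cluster was not tested.

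The tested genes whose log2 values over the 6 arrays were most like those of AT1G52100 all rose in the mutant. By Pearson's r they were LPR2, known from the root response to low phosphate (0.996), AT5G48430 (0.995), HYH, a light-signalling transcription factor gene related to HY5 (0.995), AT3G21670, a gene of the nitrate and peptide transporter family (0.994), and AT2G39710 (0.993). The call of AT2G39710 was lost in 6 alternatives, of which 4 left out an array. Because the 6 arrays form 2 separate groups, these values mostly restate the difference between the groups. HYH was at 478.2, 594.5 and 415.8 in the mutant arrays, against 119.7, 158.9 and 94 in the wild type arrays, so replicate 3 was the lowest array of each group, as it was for AT1G52100. AT3G21670 rose by 1.97 ± 0.119 on the log2 scale and AT5G48430 by 1.75 ± 0.208.

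With the group means removed, the most similar genes to AT1G52100 were UGT87A2, a glucosyltransferase gene (0.994), AT3G05990 (0.989), AT1G68410 (0.985), AT3G27880 (0.984) and AT2G40800 (0.982). Among these 5, UGT87A2 was the 1 that rose, by 0.83 ± 0.145 (limma, adjusted p = 0.00176). The other 4 differed by between -0.27 and 0.03 on the log2 scale and did not pass. These 5 were the highest among all tested probe sets with 1 named gene outside the cluster. Each r rests on few independent numbers, so values this high can arise by chance and nothing is read from them.

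Over the alternatives the 5 genes of the cluster kept the direction of their difference. AT1G52000 ranged from 1.67 to 2.31 and AT1G52100 from 2.33 to 2.83 over 15 alternatives each. The cluster was chosen on this comparison, so these ranges describe the size of the differences and are no sign of their stability. AT1G52050 ranged from -0.74 to -0.29 over 13 alternatives and passed in none of them. AT1G52060 ranged from -1.83 to -0.88, and AT1G52070 from -1.15 to -0.69.

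**Figure D5:**
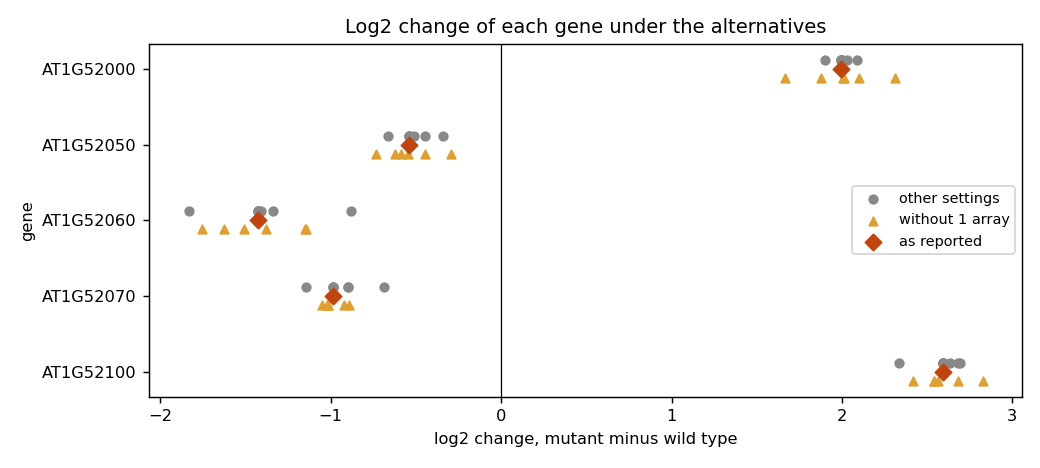
Log2 difference, mutant minus wild type, of the 5 measured cluster genes as reported (diamonds), without 1 array (triangles) and under the other settings (circles). Values of AT1G52000 and AT1G52100 stay above zero and those of the other 3 genes stay below zero in the alternatives drawn.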

How the data were processed

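The deposited values are MAS5 intensities on a linear scale, per the submitters' processing notes. The authors' scaling target shows in the files, where the mean of each array, with 2% trimmed from both ends, was 500. Values were used as log2(intensity + 16), without further scaling. Of 22810 probe sets, 64 controls were left out, and 13647 above the 40th percentile of mean log2 value were tested with limma 3.58.1 in R 4.3.3 (lmFit, eBayes with a trend), with Benjamini-Hochberg adjustment over all of them. The fit was tested on simulated data. Figures used matplotlib 3.10.9.

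Genes were named through the platform annotation and RefSeq (TAIR10.1), under which 13513 probe sets had 1 gene (13436 matched RefSeq), 503 had several genes and 8730 were unnamed. RefSeq served for names and gene order only, since no genome build is given with the values. No sequences are shown.

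The members and lists were chosen with earlier results of these data known. The rule named all members, called list genes, genes of the neighbour list within 5 places of the cluster and the 5 genes most like AT1G52100 by each of 2 measures. Of the neighbours, those with a named probe set are given. The uncalled genes of the other lists and AT1G05770 were named outside the rule, after their values were seen. The genes shown for the spread of the mutant arrays were chosen after their values were seen. The labels do not say whether replicates are separate cultures, so p-values measure only the spread between these samples, and 3 arrays per group limit the precision.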

Additional observations from a re-analysis of the deposited data

How the results depend on the processing

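Alternatives were offsets of 1 and 64, quantile normalization, median centring, no brightness filter, a 60th percentile filter, eBayes without trend, robust eBayes, a replicate block and leaving out each array. The number of cluster genes called higher was 2 in every one of them, which the choice of the cluster on this comparison favours, and the number called lower was 2 without the filter, which adds the dim probe sets, and 0 in the others. The other jacalin-related genes called higher numbered 1, in place of 2, with quantile normalization, without the filter, with eBayes without trend, with robust eBayes and with the replicate block, and 1 to 3 when an array was left out. Lower calls over all probe sets numbered 1426, and 871 to 1298 when an array was left out, with 871 without wild type replicate 2. The replicate block gave 882 higher and 1106 lower calls over all probe sets. Deviations of same-numbered arrays correlated at -0.20, 0.02 and -0.17, so the numbers were not taken as pairs, and not every array correlated best with its own number. Median centring gave 1556 higher and 960 lower calls, against 1115 and 1426 as deposited. Of 38 genes named beside the cluster, 14 changed their call in at least 1 alternative, and no called value changed direction. AT1G52050, AT1G52060 and AT1G52070 lie under the brightness limit by their mean over all arrays, and no detection call was used here to set their signal against background.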
